A study of Mus musculus with 4 samples.

Results

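NF-κB is a family of transcription factors that work as dimers. The genes described here are the 5 subunits (Nfkb1, Nfkb2, Rela, Relb and Rel) and 5 inhibitors of the IκB family (Nfkbia, Nfkbib, Nfkbie, Nfkbiz and Bcl3). They were chosen by gene symbol, and all 10 were found among the 31053 genes of the count matrices. Islets of adult male mice (strain C57BL/6 in the labels, C57BL6/J in the study's methods) had been pooled from several animals, split and studied by droplet-based single-cell RNA sequencing after 6 h of IL-1β, IFN-γ or both cytokines, or without treatment. Exposure took place ex vivo, before the islets were dissociated. Each condition gave 1 library. Differences between conditions therefore could not be set against a spread between replicates, and none was tested. Intervals below are exact 95% intervals that cover counting error only. All 3 comparisons with untreated islets share the same untreated library.

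In resting cells, classical IκB proteins such as IκBα, the product of Nfkbia, hold the dimers in the cytosol. Binding of IL-1β to its receptor activates the IκB kinase complex through the adaptor MyD88, IκB is degraded, and the freed dimers enter the nucleus and switch on genes that include some of their own inhibitors. In islets, IL-1β signaling through NF-κB is best known for the induction of Nos2, the inducible nitric oxide synthase.

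The libraries held 3486 barcodes and 50731370 unique molecular identifiers (UMIs, each counting a captured transcript) without treatment, 2911 and 20056630 after IL-1β, 3694 and 31209339 after IFN-γ, and 2480 and 25716645 after both. Limits of 200 to 4000 genes and a mitochondrial share of 12% left 7471 of the 12571 barcodes. This is fewer than the study states for the same limits. The untreated cells were the deepest, with a median of 15454 UMIs, against 7462.5 for IL-1β, 9615 for IFN-γ and 11123.5 for the combination. The upper gene limit removed 843 barcodes from the untreated library, against 146, 345 and 222 from the others. Only 16 of 12555 distinct barcodes occurred in more than 1 library.

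Cells were classed by their leading hormone, or, where hormones made up under 3% of UMIs, by marker genes. There were 4941 β-like, 903 α-like, 436 δ-like and 164 PP-like cells, and smaller numbers of endothelial-like (131), macrophage-like (144), mesenchymal-like (65), ductal-like (73) and acinar-like (59) cells. Another 334 cells with mixed hormones and 221 cells without a clear class were left out. Of the listed markers, 8 of 9 for β, 4 of 7 for α, 4 of 5 for δ and 2 of 4 for PP cells were highest in the class named for them, as were 11 of 11 for macrophages and 8 of 8 for endothelium. Insulin transcripts made up a median of 0.437% of UMIs in untreated macrophage-like cells and 41.2% in untreated β-like cells. The class rule kept macrophage-like cells under 3% hormone UMIs, so the first value sets no limit on free insulin RNA.

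Since NF-κB acts on several of its own genes, the 250 bases upstream of the RefSeq start sites (GRCm38.p6) were searched on both strands for the κB consensus. The windows exist here for 7 of the 10 genes. Nfkb2, Rel, Nfkbia and Nfkbie held a match, whereas Rela, Nfkbib and Bcl3 had none in these windows. A match was present in 4.46% of all 27025 genes with such windows, in 3.90% of all 32851 promoters and at least 2 matches, counted on either strand and including overlapping ones, in 0.493% of promoters. The stretches around the matches of the 4 genes are shown 5′ to 3′ on the gene's strand with matches in capitals, because they are the genes with a match and all 4 are described below.
Nfkb2, chr19:46304689-46304717, plus strand: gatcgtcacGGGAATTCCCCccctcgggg
Nfkb2, chr19:46304716-46304736, plus strand: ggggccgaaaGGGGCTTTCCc
Rel, chr11:23771042-23771070, minus strand: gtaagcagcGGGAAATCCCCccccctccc
Nfkbia, chr12:55492657-55492686, minus strand: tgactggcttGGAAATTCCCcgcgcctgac
Nfkbie, chr17:45555584-45555613, plus strand: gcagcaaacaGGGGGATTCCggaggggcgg
The first Nfkb2 stretch and the Rel stretch each carry 2 matches, on opposite strands, that overlap by all but a base. Both Nfkb2 stretches lie within an exon of the 5′ untranslated region of a longer Nfkb2 transcript in GENCODE M21, and within an exon of the lncRNA AC114539.1 on the opposite strand. The other stretches lie outside annotated exons. Nfkb2 has 3 start sites in RefSeq, and the windows of the other ones hold a further match each, not shown. These matches are a description of letters, and binding was not measured.

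In β-like cells, every one of the 10 genes was at least 2-fold higher after IL-1β and after both cytokines than without treatment, whereas Nfkbiz alone was past that limit after IFN-γ. None was 2-fold lower in any of the 4 comparisons. All 10 had at least 39 UMIs in untreated β-like cells. The 2-fold limit was applied to genes with at least 20 UMIs over both libraries, and 17.3% of 12138 such genes were as much higher after IL-1β, 6.46% after IFN-γ and 11.7% after both. At least 2-fold lower were 6.45%, 0.872% and 12.7% of genes in these comparisons, and 8.94% between both cytokines and IL-1β alone. The median log2 ratio of the 10 genes was 2.28 after IL-1β, 0.24 after IFN-γ and 2.64 after both. Over all genes it was 0.35, 0.31 and 0.00. Hormone transcripts took 47.6% of UMIs in untreated β-like cells and 28.3%, 34.3% and 38.0% after IL-1β, IFN-γ and both. With hormone genes left out of the totals the median of the 10 genes became 1.83 after IL-1β, -0.09 after IFN-γ and 2.40 after both, while that of all genes became -0.10, -0.02 and -0.25. The sign of the IFN-γ median therefore depends on the scaling, and Rela (1.69-fold) and Nfkbie (1.88-fold) fell below the 2-fold limit for IL-1β.

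**Figure D1:**
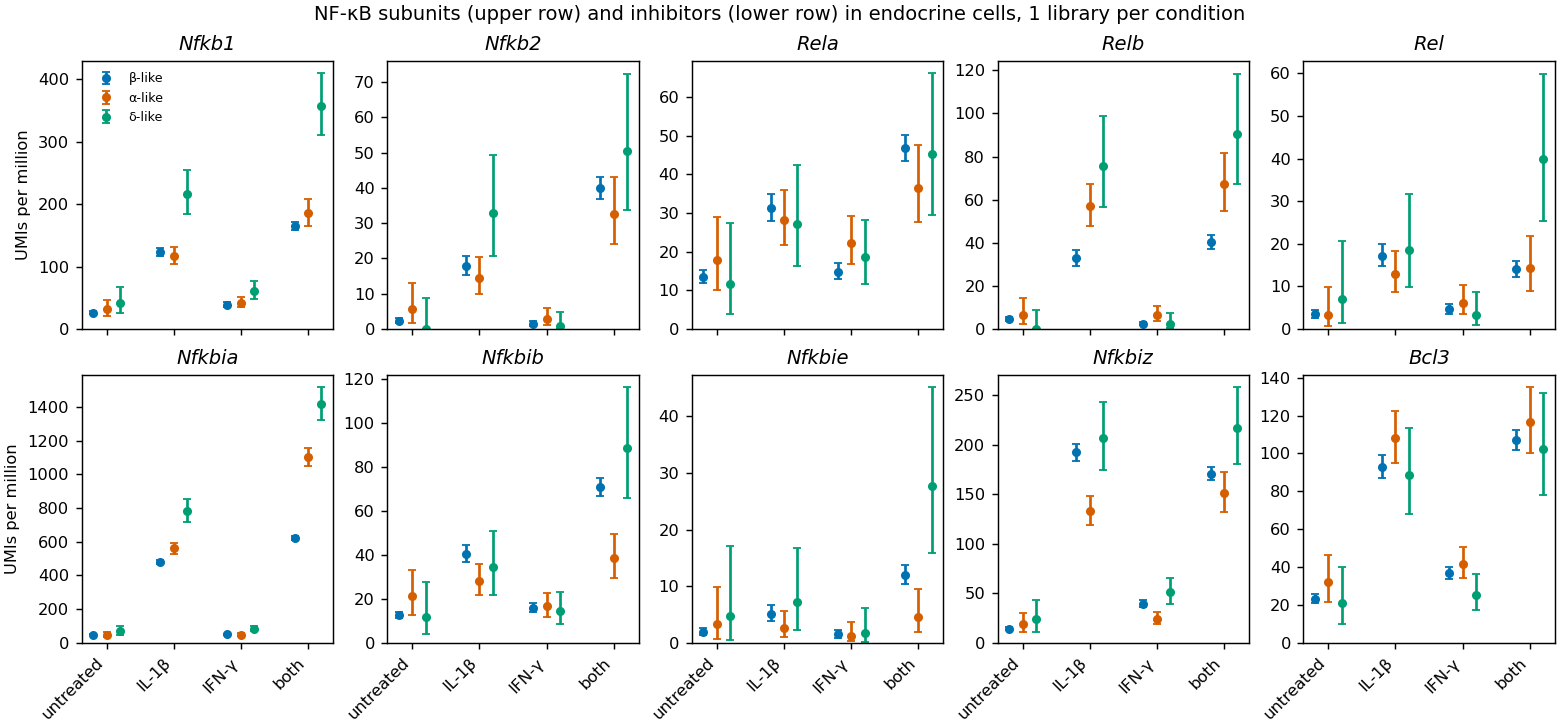
Level of each gene, in CPM (UMIs per 1000000) on a linear axis, in β-like, α-like and δ-like cells of the 4 libraries (both, IL-1β plus IFN-γ), with exact Poisson 95% intervals of counting error. Most genes are low without treatment and after IFN-γ and high in both libraries that received IL-1β, as for Nfkbia in β-like cells (49.0, 50.4, 480 and 624).

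Nfkbia (ENSMUSG00000021025, GRCm38 chr12:55489410-55492647, minus strand) encodes IκBα. Its level in β-like cells was 49.0 UMIs per 1000000 UMIs of the class (CPM) without treatment, 480 CPM after IL-1β, 50.4 CPM after IFN-γ and 624 CPM after both. Where 4 values are given below, they follow this order of libraries. The libraries thus fell into a low and a high pair according to IL-1β. The ratio to untreated cells was 9.81 (9.16 to 10.5) after IL-1β, 1.03 (0.933 to 1.13) after IFN-γ and 12.7 (11.9 to 13.6) after both. With hormone genes left out of the totals the IFN-γ ratio was 0.820, on the other side of 1. Both cytokines against IL-1β alone gave a ratio of 1.30 (1.25 to 1.34).

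Nfkbiz (ENSMUSG00000035356, chr16:55811375-55838899, minus strand) encodes IκBζ, a nuclear member of the family that is itself an early response gene. It was at 14.4 CPM without treatment, 192 CPM after IL-1β, 39.4 CPM after IFN-γ and 171 CPM after both. It was the gene of the 10 with the largest IL-1β ratio, 13.4 (11.8 to 15.2), and the only one past 2-fold after IFN-γ, at 2.74 (2.37 to 3.17). With IFN-γ added to IL-1β the ratio was 0.888 (0.837 to 0.942), and without hormone genes in the totals it was 1.03, on the other side of 1.

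Bcl3 (ENSMUSG00000053175, chr7:19808462-19822770, minus strand) encodes another nuclear IκB, which binds p50 and p52 dimers. Its levels were 23.3 CPM without treatment, 92.95 CPM after IL-1β, 36.8 CPM after IFN-γ and 107 CPM after both. Nfkbib (ENSMUSG00000030595, chr7:28758251-28767512, minus strand), which encodes the cytosolic inhibitor IκBβ, was at 12.6, 40.4, 16.0 and 70.9 CPM in these libraries. Nfkbie (ENSMUSG00000023947, chr17:45555703-45563169, plus strand), encoding IκBε, was the scarcest inhibitor, with 39, 51, 21 and 189 UMIs in all, or 1.96, 5.05, 1.48 and 11.97 CPM. The last 2 genes stood higher after both cytokines than after IL-1β alone, with ratios of 1.75 (1.56 to 1.97) for Nfkbib and 2.37 (1.73 to 3.29) for Nfkbie. Nfkbib overlaps Ccer2 and Sirt2, and Bcl3 overlaps the antisense genes Gm16175 and Gm16174, each on the opposite strand. The sources used here do not say whether reads were counted by strand.

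Among the subunits, Nfkb1 (ENSMUSG00000028163, chr3:135584655-135691547, minus strand) encodes p105, the precursor of p50. It was at 25.9 CPM without treatment, 123 CPM after IL-1β, 39.2 CPM after IFN-γ and 165 CPM after both. The ratio to untreated cells was 4.76 (4.29 to 5.28) after IL-1β and 6.36 (5.79 to 7.01) after both. For IFN-γ alone the ratio of 1.51 (1.34 to 1.71) was 1.27 when each cell was weighted equally and 1.003 when each cell was thinned to 4000 UMIs.

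Nfkb2 (ENSMUSG00000025225, chr19:46304320-46312385, plus strand) and Relb (ENSMUSG00000002983, chr7:19606217-19629438, minus strand) encode p100, the precursor of p52, and the subunit that typically pairs with p52 in the alternative pathway. Nfkb2 was at 2.36 CPM without treatment, 17.9 CPM after IL-1β, 1.55 CPM after IFN-γ and 39.8 CPM after both. Its ratio of 16.9 (12.5 to 23.2) after both was the largest of the 10 genes in that comparison. Relb was at 4.73, 32.8, 2.46 and 40.3 CPM. After IFN-γ alone Relb had a ratio of 0.520 (0.342 to 0.775), the only gene of the 10 whose interval lay below 1, with 35 UMIs against 94. With hormone genes left out of the totals it was 0.415, past 2-fold lower. Nfkb2 stood 2.22-fold (1.88 to 2.64) higher after both cytokines than after IL-1β alone, and Relb 1.23-fold (1.07 to 1.41). Nfkb2 overlaps Psd on the opposite strand.

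Rela (ENSMUSG00000024927, chr19:5637483-5648130, plus strand), which encodes the transactivating subunit p65, had one of the smaller ratios of the 10 genes. It was at 13.6 CPM without treatment, 31.3 CPM after IL-1β, 14.8 CPM after IFN-γ and 46.7 CPM after both. The ratios were 2.31 (1.96 to 2.72) after IL-1β and 3.44 (2.99 to 3.97) after both. Rel (ENSMUSG00000020275, chr11:23736847-23770970, minus strand) encodes c-Rel, best known from lymphoid cells. It was at 3.47, 17.2, 4.71 and 14.0 CPM. Its ratio after both was 4.04, but 2.64 after thinning to 4000 UMIs, below the 3.50 of Rela under the same thinning. Rel and Nfkbiz were the genes that stood lower after both cytokines than after IL-1β alone, Rel with a ratio of 0.812 (0.663 to 0.996). This Rel ratio ranged from 0.728 to 0.938 over the processing settings. The other 8 genes stood higher, and their intervals lay above 1, while the median log2 ratio of all genes was -0.34 in that comparison. The share of all genes with an interval above 1 was not counted, so these intervals are a description. Only Nfkb2 and Nfkbie passed 2-fold, where 2.69% of 11839 genes did, and Nfkbib (2.03) joined them with hormone genes left out of the totals.

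**Figure D2:**
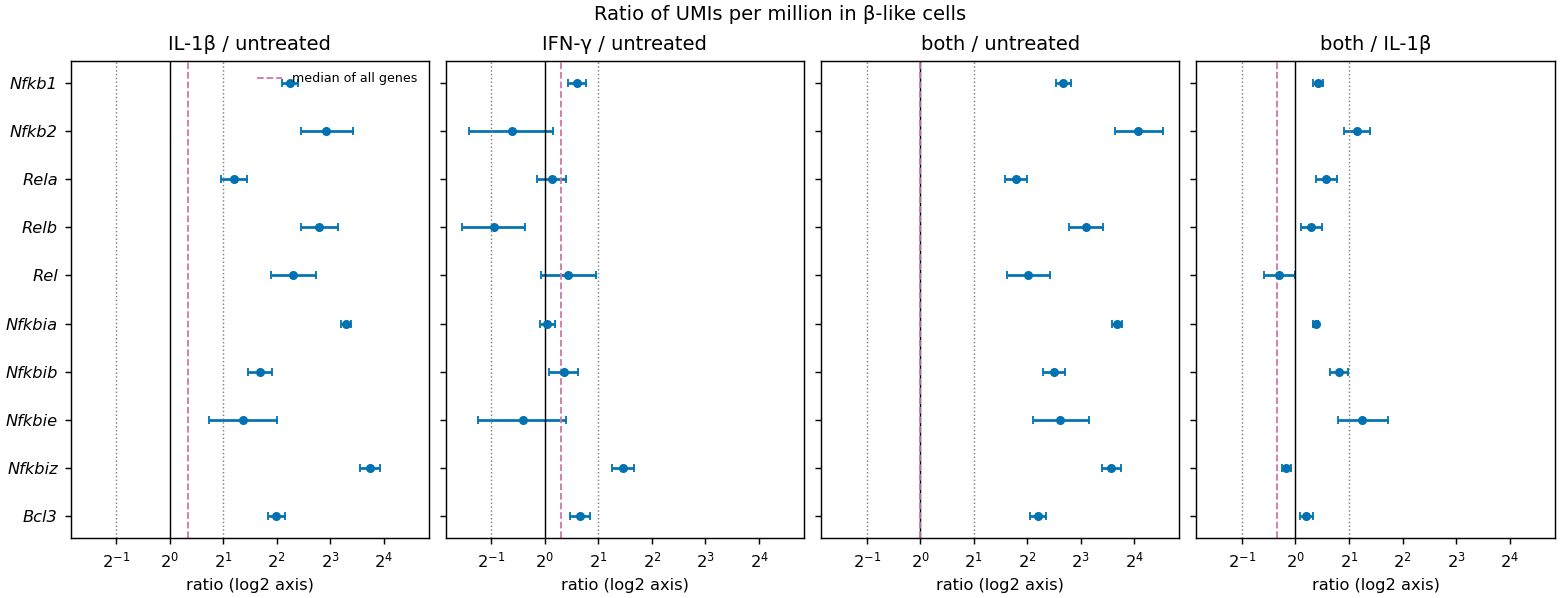
Ratio of CPM in β-like cells for the 4 comparisons on a log2 axis, with exact 95% intervals of counting error, a dashed line at the median of all genes and dotted lines at 2-fold. All 10 points lie right of the upper dotted line for IL-1β and for both cytokines against untreated, and only Nfkbiz does so for IFN-γ.

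Other values moved with the treated libraries. All 5 heat shock genes listed were at least 2-fold higher after IL-1β and after both, and 4 of 5 after IFN-γ. The shares over all genes were 17.3%, 11.7% and 6.46%. With hormone genes left out of the totals the heat shock counts were 4, 5 and 2 in this order of libraries. Hspa1b, Dnajb1 and Hspb1 had ratios of 4.46, 3.54 and 3.04 after both. Hspa1a, an inducible HSP70, was at 88.4 CPM without treatment, 283 CPM after IL-1β, 200.3 CPM after IFN-γ and 278 CPM after both. Without cells of at least 10 Hspa1a UMIs per 10000, all 10 genes were still past 2-fold in β-like cells after IL-1β and after both. The 11 macrophage markers summed to 72.3 CPM in β-like cells without treatment, 47.8 CPM after IL-1β, 47.0 CPM after IFN-γ and 144 CPM after both. Most of this was C1qa, at 68.97, 36.0, 40.3 and 136 CPM, while Adgre1 was at 0 in all 4 libraries. The 8 endothelial markers summed to 6.38, 3.47, 6.74 and 3.42 CPM. Median mitochondrial shares were 5.02%, 6.27%, 6.44% and 5.11%. The part of the macrophage transcripts in the result was not tested.

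In α-like cells (89, 343, 300 and 171 cells without treatment and after IL-1β, IFN-γ and both), 7 of the 9 genes that reached 20 UMIs were at least 2-fold higher after IL-1β, and 8 of 9 after both. The same was true of 9.25% and 9.8% of all genes, respectively. Genes such as Nfkb2, Rel and Relb, with 5, 3 and 6 untreated UMIs, reached the minimum only through the treated library, so these counts are a description that supports nothing. None of 7 genes passed after IFN-γ, against 6.65% of all genes. Nfkbie did not reach the minimum, with 3, 6, 3 and 7 UMIs, and only Bcl3, Nfkb1 and Nfkbia reached it in the untreated library itself. Nfkbia was at 47.9 CPM without treatment, 560 CPM after IL-1β, 47.9 CPM after IFN-γ and 1103 CPM after both. The combination thus gave 1.97 times (1.83 to 2.12) the level after IL-1β alone. The Nfkbia ratio to untreated cells, 11.7 (8.63 to 16.2) after IL-1β and 23.0 (17.0 to 31.9) after both, became 18.7 and 35.4 when cells were thinned to 4000 UMIs, where untreated cells had a mean of 0.123 UMIs. Its IFN-γ ratio, near 1 before thinning, was then 1.61. Nfkb2 went from 2.61 to 5.24 and from 5.86 to 10.2. Its untreated mean was then 0.0123 UMIs over 81 cells, under the floor of 3 UMIs. The thinned Nfkb2 ratios were computed without that floor and give no size of change. Relb was at 6.69, 56.8, 6.61 and 67.2 CPM, a ratio of 8.50 (3.803 to 23.6) after IL-1β. Nfkbib, in contrast, was at 21.2, 28.2, 16.5 and 38.5 CPM, and its interval after IL-1β (0.790 to 2.35) held 1. Nfkb2 was the one gene past 2-fold between both cytokines and IL-1β, at 2.25 (1.42 to 3.58), where 4.18% of all genes passed. After thinning to 4000 UMIs that ratio was 1.95, below the limit.

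In δ-like cells (51, 136, 162 and 87 cells), 8 of 8 genes with enough UMIs were at least 2-fold higher after IL-1β and 9 of 9 after both, against 10.9% and 12.6% of all genes. With so few untreated cells, only Nfkbia reached the minimum in the untreated library itself. The other genes reached it with their treated counts, so 8 of 8 and 9 of 9 are a description that supports nothing. After IL-1β the interval of 7 of the 8 lay above 1, and that of Rela (2.31, 0.833 to 7.90, from 5 untreated UMIs) held 1. How many of all genes had an interval above 1 was not counted, so this too is a description. Nfkbia was at 70.6 CPM without treatment, 784 CPM after IL-1β, 83.0 CPM after IFN-γ and 1418 CPM after both, its highest level in any endocrine class. Nfkb1 was at 42.4, 217, 61.0 and 357 CPM. Nfkb2 and Relb had no UMI in untreated δ-like cells, with an exact upper limit of 8.69 CPM. After IL-1β they reached 32.8 and 75.7 CPM, for exact lower limits of the ratio of 3.49 and 8.42. Against a floor of 3 UMIs in the untreated library (7.06 CPM) the ratios were 4.65 and 10.7. After IFN-γ alone 1 of 6 genes, Nfkbiz, passed at 2.16 (1.10 to 4.73), against 6.18% of all genes. This ratio, from 10 untreated UMIs and 60 after IFN-γ, ranged from 1.81 to 4.44 over the settings. The upper end came from thinning, where the untreated mean of 0.0435 UMIs over 46 cells was under the floor of 3 UMIs. Between both cytokines and IL-1β, 3 of 10 genes passed, against 6.31%, namely Nfkbib (2.58, 1.56 to 4.39), Nfkbie (3.89, 1.36 to 13.6) and Rel (2.15, 1.04 to 4.62). Nfkbie (5 and 16 UMIs after IL-1β and both) and Rel (13 and 23) reached the minimum only through the library where they were higher, as Nfkbiz did after IFN-γ, so these counts too support nothing. The Nfkbie ratio ranged from 1.83, without Hspa1a-high cells, to 5.21, after thinning, where it no longer reached the minimum. Several ratios to untreated δ-like cells moved by over 1.5 times with the settings. After IL-1β, Nfkb1 (5.12) ranged from 3.76 to 10.3, Nfkbiz (8.80) from 6.24 to 18.3, Bcl3 (4.18) from 2.45 to 4.54 and Rela from 1.03 to 4.26. After both, Nfkb1 (8.43) ranged from 6.09 to 17.6, Nfkbiz (9.21) from 6.64 to 18.2, Rela (3.83) from 1.61 to 8.47 and Nfkbia (20.1) from 17.6 to 30.8. In both comparisons the upper ends for Nfkbiz and Rela came from thinning to 4000 UMIs. Their untreated means were then 0.0435 and 0.0217 UMIs over 46 cells, under the floor of 3 UMIs. Those upper ends therefore give no size of change.

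The combination stood further above IL-1β alone for Nfkbia in α-like (1.97) and δ-like (1.81, 1.62 to 2.02) than in β-like cells (1.30), and these intervals do not overlap that of β-like cells. The gap was narrower with hormone genes left out of the totals, at ratios of 1.97, 1.81 and 1.501. The median log2 ratio of all genes in this comparison was -0.34 in β-like, -0.12 in α-like and -0.17 in δ-like cells. The share of cells with at least 10 Hspa1a UMIs per 10000 also differed. It was 5.25% after IL-1β and 30.4% after both in α-like cells and 4.41% and 40.2% in δ-like cells, but 9.05% and 6.62% in β-like cells. Macrophage markers in α-like cells summed to 50.2, 16.7, 24.8 and 49.0 CPM and in δ-like cells to 98.9, 29.99, 68.6 and 93.7 CPM, again led by C1qa, with Ptprc, Csf1r and Adgre1 at 0 in all 4 libraries. The 8 ductal markers, of which 5, 6, 5 and 6 were detected, summed to 2604, 9177, 3363 and 4509 CPM in α-like cells. Spp1 led them at 2429, 9010, 3205 and 4306 CPM, while Krt17 was at 0 in the first 3 libraries and Sox9 at 0 without treatment and after IFN-γ. In δ-like cells they summed to 334, 538, 249.9 and 262 CPM. Their part in the result was not tested. Without the Hspa1a-high cells the Nfkbia ratio was 1.78 in α-like and 1.60 in δ-like cells, and the number of genes past 2-fold in δ-like cells went from 3 to 1.

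In PP-like cells (29, 32, 58 and 45 cells) Nfkbia and Nfkb1 were likewise low in the libraries without IL-1β and high in those with it. The Nfkbia level was 49.6 CPM without treatment, 677 CPM after IL-1β, 77.4 CPM after IFN-γ and 861 CPM after both. Nfkb1 was at 13.0, 123.5, 29.5 and 140 CPM. Bcl3 did not split this way, at 36.5, 106, 71.8 and 78.8 CPM, with a ratio of 1.97 (1.04 to 3.92) after IFN-γ.

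**Figure D3:**
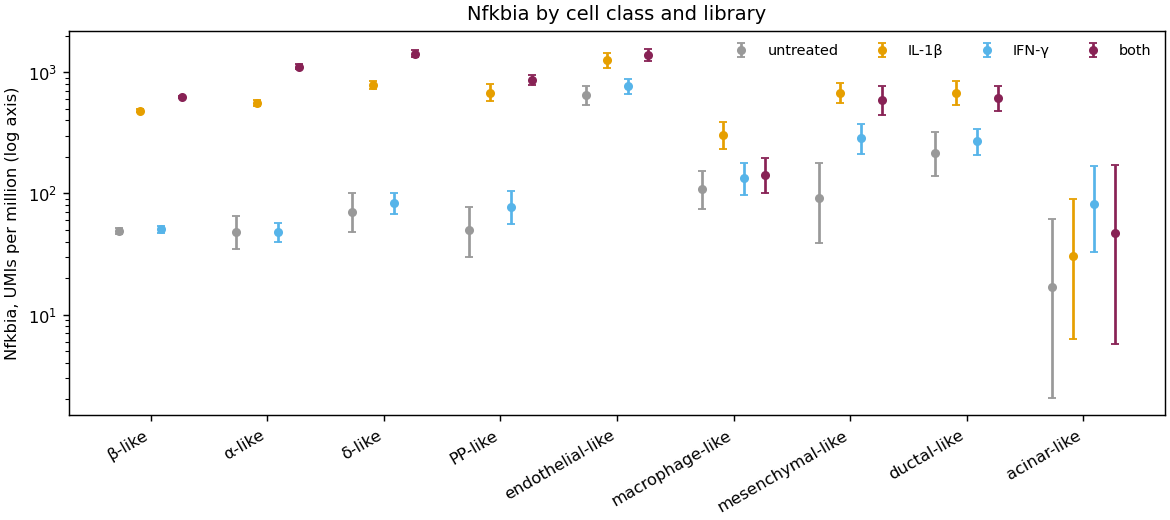
Nfkbia level, in CPM on a log axis, for 9 cell classes and 4 libraries with exact Poisson 95% intervals of counting error. Endothelial-like cells are high without treatment (644), and macrophage-like cells after both cytokines (142) lie near their untreated level (108).

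Outside the endocrine classes the starting levels differed. Endothelial-like cells (22 to 46 per library) had 644 CPM (539 to 765) of Nfkbia without treatment, above every other class. After IL-1β they had 1247 CPM, after IFN-γ 764 CPM and after both 1389 CPM. Macrophage-like cells (31 to 44 per library) had 108 CPM (73.6 to 152) without treatment, 301 CPM (231 to 385) after IL-1β, 133 CPM (97.0 to 178) after IFN-γ and 142 CPM (100.3 to 195) after both. The interval after IL-1β alone lay above the untreated one, and that after both cytokines overlapped it. Nfkb1 in macrophage-like cells was at 57.2, 52.6, 62.1 and 44.8 CPM, with overlapping intervals. Rel was the gene that macrophage-like cells held at the highest level of the 9 classes in all 4 libraries, at 33.6, 66.9, 82.8 and 52.2 CPM, although the intervals overlap those of the next class. Ductal-like cells had 216, 678, 268 and 611 CPM of Nfkbia and mesenchymal-like cells 90.8, 677, 284 and 589 CPM. Acinar-like cells had only 2, 3, 7 and 2 Nfkbia UMIs, too few to compare.

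Upstream of the inhibitors, 5 of 13 genes of the IκB kinase complex and its proximal kinases and adaptors were at least 2-fold higher in β-like cells after IL-1β, namely Chuk, Irak2, Irak4, Myd88 and Traf6, against 17.3% of all genes. With hormone genes left out of the totals 1 of 13, Myd88 (2.23), was, and another, Tab1 (0.447), was at least 2-fold lower. Their list had a median log2 ratio of 0.89, against 0.35 over all genes. Myd88, the adaptor of the IL-1 receptor, was at 7.44 CPM without treatment, 22.7 CPM after IL-1β, 11.7 CPM after IFN-γ and 41.6 CPM after both. Irak2, a kinase that binds MyD88, was at 2.06, 4.86, 5.76 and 10.3 CPM. Chuk and Ikbkb, the catalytic subunits of the complex, had ratios of 2.26 (2.05 to 2.50) and 1.83 (1.60 to 2.10) after IL-1β, and Ikbkg, its regulatory subunit NEMO, 1.27 (1.03 to 1.57), which became 0.930 without hormone genes in the totals. Map3k7, which encodes the upstream kinase TAK1, had a ratio of 1.67 (1.45 to 1.91), and Map3k14, which encodes the kinase NIK of the alternative pathway, 1.28 (0.878 to 1.85), or 0.935 without hormone genes. After both cytokines Irak2 and Myd88 were past 2-fold, Traf6, a ubiquitin ligase, was at 1.93 (1.66 to 2.25), and Tab1, a partner of the kinase TAK1, was 0.438 (0.325 to 0.584) times the untreated level.

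Of 20 other regulators, 19 had enough UMIs, and 8 of them were at least 2-fold higher after IL-1β (Bcl10, Birc3, Malt1, Nfkbid, Tnfaip3, Tnip1, Traf2 and Traf3). After both cytokines 6 of 19 were. Over all genes the shares were 17.3% and 11.7%. With hormone genes left out of the totals the counts were 4 and 5 of 19, and 1 gene was at least 2-fold lower in each comparison, Nkiras2 (0.466) after IL-1β and Nkiras1 (0.469) after both. Nfkbid, with 12 untreated UMIs, was the one gene among those called that reached the minimum only through the treated library. Tnfaip3, Birc3, Tnip1 and Nfkbid had the largest log2 ratios after both cytokines, of 6.58, 5.51, 3.21 and 2.66. Tnfaip3 encodes A20, a feedback inhibitor of the pathway, Tnip1 encodes a partner of A20, Birc3 encodes a ubiquitin ligase, and Nfkbid encodes a further nuclear IκB. Of 20 textbook targets, all 16 with enough UMIs were past 2-fold after IL-1β and after both, and 10 of 11 after IFN-γ. The shares over all genes were 17.3%, 11.7% and 6.46%. With hormone genes left out of the totals 15 of 16 targets were past 2-fold after IL-1β, 16 of 16 after both and 9 of 11 after IFN-γ. After IL-1β and after both, 11 of the 16 reached the minimum only through the treated library, as did 6 of the 10 after IFN-γ, so these counts are a description that supports nothing. Among them Ccl2, a chemokine, was at 0.452 CPM without treatment, 133 CPM after IL-1β, 22.8 CPM after IFN-γ and 464 CPM after both. Cxcl1, a neutrophil chemokine, had no UMI in untreated β-like cells, and was at 259, 1.48 and 149 CPM after IL-1β, IFN-γ and both. Nos2 was at 137 CPM after IL-1β, 2.53 CPM after IFN-γ and 634 CPM after both, with 1 UMI in untreated cells. Cxcl10 was at 2.16, 64.0, 76.4 and 2652 CPM, the only one of these 4 targets that stood higher after IFN-γ than after IL-1β. The same limit holds for α-like and δ-like cells. There 11 of 13 and 11 of 12 targets passed after IL-1β, against 9.25% and 10.9% of all genes. Cxcl10 went the other way in α-like cells, at 56.8 CPM without treatment and 20.9 CPM after IL-1β, a ratio of 0.368 (0.244 to 0.556), and was at 1848 CPM after both. All 51 of its untreated α-like UMIs came from 1 cell, however, so this ratio rests on that cell. The labels were checked with IFN-γ-responsive genes in β-like cells. The GTPase gene Iigp1 was at 0.101 CPM without treatment, 1.19 CPM after IL-1β, 1153 CPM after IFN-γ and 640 CPM after both, and Igtp at 3.42, 5.95, 562 and 388 CPM. Gbp2 (1.51, 286, 827 and 1826 CPM) and the signaling inhibitor Socs1 (0.704, 8.92, 37.0 and 100.1 CPM) were also past 2-fold higher after IL-1β alone.

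Over the 12 points of 3 endocrine classes and 4 libraries, the genes most like Nfkbia among 10429 genes were Ehd1 (Pearson's r = 0.985), Errfi1 (0.985) and Ralgds (0.980). Those most like Nfkb1 were Icam1 (0.980), Crybg2 (0.979) and Nfkbia (0.973). Relb was the gene most like Nfkb2 (0.972), followed by Rhbdf2 (0.949) and Mgat4b (0.948), and Cpeb4 (0.981), Ptp4a1 (0.977) and Mocs2 (0.977) were those most like Nfkbiz. The points share libraries and depth, so these values are a description.

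Cells of a class varied among themselves. To compare them, each cell was thinned to 4000 UMIs, which left out 206 shallower β-like cells. Mean Nfkbia UMIs per β-like cell were then 0.192 without treatment, 1.98 after IL-1β, 0.201 after IFN-γ and 2.50 after both. Even after IL-1β 29.9% of β-like cells had no Nfkbia UMI, and 26.3% had none after both, while the 90th percentile was 5 and 6 UMIs. The variance divided by the mean was 1.68 without treatment, 2.44 after IL-1β, 2.13 after IFN-γ and 2.59 after both, where counting alone gives a value near 1. After both cytokines 40.96% of α-like and 63.2% of δ-like cells had at least 5 Nfkbia UMIs, against 19.95% of β-like cells. Hormone transcripts took 19.4%, 18.5% and 38.0% of UMIs in these classes, which leaves β-like cells fewer other UMIs among the 4000. The part of this in the difference was not tested. Per β-like cell, a mean of 0.606, 2.43, 0.718 and 2.78 of the 10 genes was detected.

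**Figure D4:**
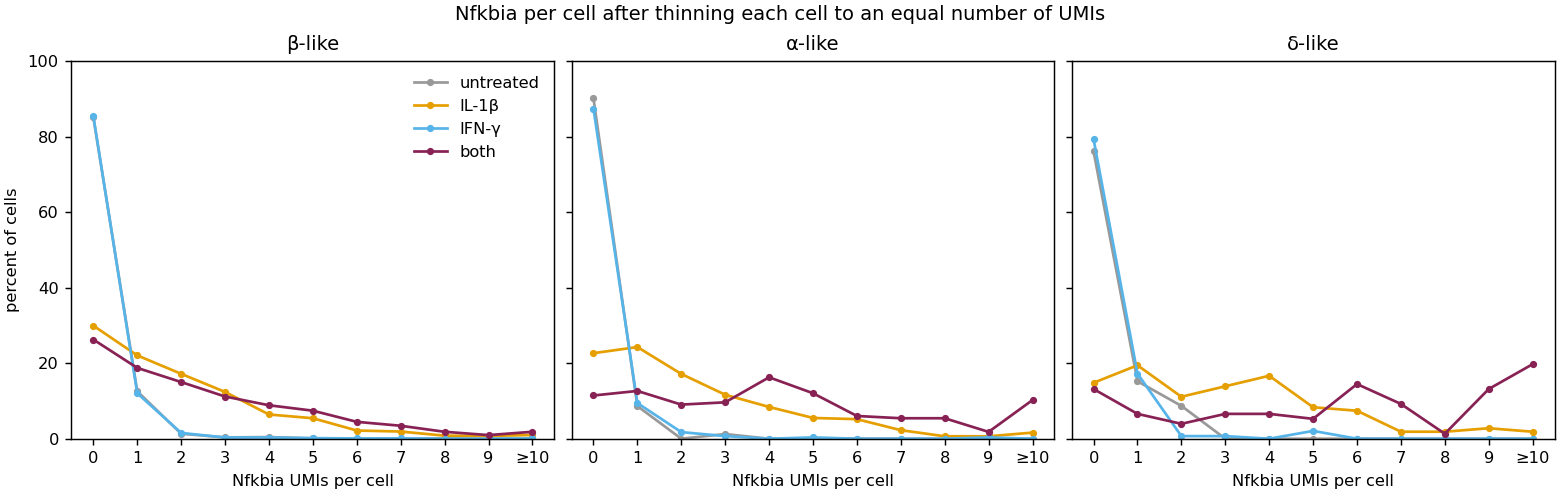
Percent of β-like, α-like and δ-like cells with each number of Nfkbia UMIs after thinning to 4000 UMIs per cell, by library (the last point holds 10 or more). Untreated and IFN-γ cells lie mostly at 0 (85.1% and 85.4% of β-like cells), whereas the 2 libraries that received IL-1β spread over many values.

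In the libraries that received IL-1β, β-like cells with at least 10 Hspa1a UMIs per 10000 had more Nfkbia. After IL-1β these 86 cells had 2.97 UMIs (2.61 to 3.35) per thinned cell and the other 1020 cells had 1.90 (1.81 to 1.98). After both cytokines the values were 3.51 (3.11 to 3.94) and 2.43 (2.34 to 2.52). Bcl3 went the other way, with 0.198 (0.115 to 0.316) and 0.415 (0.376 to 0.456) UMIs after IL-1β. Before thinning, 9.05% of 1182 β-like cells after IL-1β were Hspa1a-high, against 86 of 1106 after it. Thinning thus left out a larger share of them than of the others, and the depth of these groups is not given. Cells with and without Nos2 UMIs differed less in Nfkbia. After both cytokines, 903 Nos2-positive β-like cells had 2.57 Nfkbia UMIs (2.47 to 2.68) and 350 cells without Nos2 had 2.30 (2.15 to 2.47). Nfkb1 differed more, at 0.714 (0.660 to 0.772) and 0.460 (0.392 to 0.537). The Nos2-positive cells were deeper before thinning, with a median of 12871 UMIs against 10835, which can itself affect whether a Nos2 UMI is found. In δ-like cells after both cytokines, the 47 Nos2-positive cells had 7.53 Nfkbia UMIs (6.77 to 8.36) and the other 29 had 4.38 (3.65 to 5.21), at medians of 6610 and 6197 UMIs. In α-like cells the values were 4.48 (3.94 to 5.07) in 56 and 4.31 (3.93 to 4.72) in 110 cells, with overlapping intervals. The variance of Nfkbia divided by its mean was 2.59 in β-like and 3.57 in δ-like cells after both. Intervals of counting error are therefore too narrow for means over cells, and whether they overlap decides nothing. Cells of 1 library are not replicates, and these intervals say nothing of other islets.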

How the data were processed

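The deposited matrices hold raw UMI counts, made by the authors with Cell Ranger on mm10 per the labels' processing notes, without normalization. The matrix headers give a software version of 3.0.0. The kit is version 2 in the labels and version 3 in the study's methods. The members and the gene lists were chosen with earlier results of these data known.

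Cells were filtered to 200 to 4000 genes and at most 12% mitochondrial UMIs, as in the study's methods. A cell was classed by its leading hormone (insulin, Gcg, Sst or Ppy) if this made up at least 3% of UMIs and at least 80% of the UMIs of the 4 hormones, with fewer than 4 markers of a non-endocrine type detected (Ppy was left out of the sum for α and δ). Cells under 3% needed at least 3 markers of 1 type. These limits were chosen after the distribution of hormone shares was seen, and 22 β-like, 4 α-like, 35 δ-like and 1 PP-like cells lay within 1 percentage point of the 3% limit. No clustering and no doublet caller were used, and the upper gene limit and the 80% rule stand in for the latter. Class names may therefore differ from the study's.

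UMIs were summed per class and library and scaled to UMIs per 1000000 (CPM). Intervals are exact (Poisson for levels, conditional Poisson for ratios), at 95%. Ratios used genes with at least 20 UMIs over both libraries. A floor of 3 UMIs replaced only a count of 0, and other counts under it entered ratios unchanged. After thinning this held, among others, for untreated Nfkb2 in α-like cells and untreated Rela and Nfkbiz in δ-like cells. All 10 members are named. From each other list, the 4 genes with the largest absolute log2 ratio in β-like cells with both cytokines are named, with the kinases of the IκB kinase complex and any gene in a count of 5 or fewer. The 3 most alike genes were taken by Pearson correlation of log2(CPM + 1) among genes with at least 200 UMIs. The κB motif search and its windows were added after the values were seen. GENCODE M21, on the same build, matched 31011 of 31053 identifiers. Ratios were tested on simulated data with 200 changed genes. Python 3.11.15, numpy 2.4.6, scipy 1.17.1, pandas 2.3.3 and matplotlib 3.10.9 were used. The study's other experiments were not analysed here. 1 item of the IFN-γ response list is not reported here, and no count over that list is given.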

Additional observations from a re-analysis of the deposited data

Results flagged for a closer look

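Rel, between both cytokines and IL-1β alone, moved in opposite directions in 2 classes. The ratio was 2.15 in δ-like cells, from 13 and 23 UMIs, and 0.812 (0.663 to 0.996) in β-like cells. The upper limit in β-like cells lay close to 1, and the β-like ratio ranged from 0.728 to 0.938 over the settings. The difference between the classes was not tested, and without the cells of at least 10 Hspa1a UMIs per 10000 the δ-like ratio was 1.69 and after thinning to 4000 UMIs 1.68.

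Barcodes with more than 12% mitochondrial UMIs and 200 to 4000 genes took no part in the comparisons above. There were 695 in untreated islets, 319 after IL-1β, 463 in the library after IFN-γ and 248 after both, of all cell types together, and their median depth was 2365, 2912, 4054 and 1464.5 UMIs. Several of the 10 genes had levels whose exact Poisson interval lay above that of the same untreated barcodes. How many of all genes did so in these barcodes was not counted, so these levels are a description. Nfkbia was at 23.0 CPM in untreated islets, 442 CPM after IL-1β, 47.1 CPM after IFN-γ and 586 CPM after both. After IL-1β and after both, Nfkb1 was at 144 and 299.8 CPM (38.1 CPM untreated), Nfkb2 at 10.8 and 29.2 CPM (1.98), and Relb at 38.1 and 67.7 CPM (4.76). Nfkbiz was at 145, 39.7 and 134 CPM after IL-1β, IFN-γ and both (22.2), and Bcl3 at 77.8, 34.0 and 83.0 CPM (18.2). After both cytokines alone among the treated libraries, Rela was at 52.3 CPM (13.1), Rel at 24.6 CPM (4.36), Nfkbib at 35.4 CPM (7.93) and Nfkbie at 16.9 CPM (1.19).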

How the results depend on the processing

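No paired analysis was possible because each condition had 1 library. Of 822 recomputed ratios of single genes under the alternatives, 768 moved by less than their counting interval, 54 moved by more and no called ratio changed sign. The number of genes past 2-fold, in either direction, stayed within 1.5 times its main value except as follows. With IFN-γ in β-like cells (1 gene) it was 2 after thinning to 4000 UMIs, 2 with hormone genes left out of the totals, 2 with cells weighted equally (the added gene was Relb, lower, each time), and 5 at a 1.5-fold limit. With IFN-γ in α-like cells (0 genes) it was 1 after thinning. Between both cytokines and IL-1β in α-like cells (1 gene) it was 0 after thinning and 3 at 1.5-fold. In δ-like cells it was 5 in place of 8 with IL-1β after thinning. With IFN-γ in δ-like cells (1 gene) it was 0 without the upper gene limit, 2 with stricter hormone dominance, 2 without a minimum of UMIs and 2 at 1.5-fold. Between both cytokines and IL-1β in δ-like cells (3 genes) it was 1 without Hspa1a-high cells and 7 at 1.5-fold. After thinning that number stayed at 3, but Rel (1.68) dropped below 2-fold and Nfkb2 (2.07) and Nfkbia (2.03) passed it. Thinning and the minimum change which genes have enough UMIs, and the other causes were not tested. In the 51 untreated δ-like cells the counts limit the precision, since Nfkb2, Relb, Rel, Rela, Nfkbib and Nfkbie had no more than 5 UMIs each.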

Other observations

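In the library with IFN-γ alone, 8 of 1295 β-like cells carried Nos2, with 36 UMIs between them and 21 in a single cell. These 8 cells had 4.38 Nfkbia UMIs (3.05 to 6.08) per cell after thinning to 4000 UMIs, and the other 1230 cells had 0.174 (0.151 to 0.199). Bcl3 was at 0.750 (0.275 to 1.63) and 0.159 (0.137 to 0.182), whereas Nfkb1 was at 0.125 (0.00316 to 0.696) and 0.136 (0.116 to 0.158). Median depth before thinning was 10415 and 11242 UMIs, and none of the 8 barcodes occurred in another library. These cells were singled out after their values were seen, and no explanation was tested.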
